A study of Caenorhabditis elegans with 7 samples.

Results

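Most of the genes described here had a high ratio before heating. All had a lower ratio within the first hours at 30 °C. For each, the mean of the 10 and 12 h arrays was also below the 0 h ratio. They were chosen from measured values. For each gene the early change was the mean of the 2 and 4 h arrays minus the 0 h array. The late change was the mean of the 10 and 12 h arrays minus the mean of the 2 and 4 h arrays. A member had an early change of -1 log2 unit or lower and a late change between -0.7 and 0.7. Of 5315 genes with a value on all 7 arrays, 199 met these limits. Of these, 8 were set apart because the rule leaves out their name or name family: acox-1.4, acox-1.6, cest-10, cest-27, cest-32, hphd-1, pycr-1 and T27E4.7. The remaining 191 genes, 3.59% of the 5315, are the members, and the 0, 2, 4, 10 and 12 h values that chose them are given as a description.

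The animals were adult Caenorhabditis elegans of strain CF512, which is sterile when raised at 25 °C. They were grown to adulthood at 25 °C and then held at 30 °C for 0, 2, 4, 6, 8, 10 or 12 h, and all groups share the strain and the growth temperature. Total RNA of whole animals was hybridised on 2-colour arrays against a reference RNA named HS1, with 1 array per time point. No time point has a replicate, so no single value has an error of its own. Each value is a log2 ratio, centred so that the median probe of each array lies at 0. No source used here states which channel is the numerator. The ratio is taken as worm RNA over reference because the heat-inducible HSP70 genes F44E5.4 and F44E5.5 had ratios of 0.91 and 0.83 at 2 h, against -4.98 for each at 0 h. The 0 h values lie at the lower limit of the file, which is -5 before centring, so they are bounds. With the sign turned, every member would be raised instead of lowered.

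In worms, as in other animals, heat switches on genes for chaperones through heat shock factor, while many genes for growth, digestion and metabolism are expressed less. The worm intestine is both the gut and the main metabolic organ. It secretes proteases and other hydrolases into its lumen and stores fat and yolk. Several named members belong to such enzyme families. Whole animals were measured, so fewer cells of a type and less RNA per cell cannot be told apart. Tissue markers could not settle the point: none of the listed intestine, hypodermis or muscle markers had a named probe. Of the sperm list 3 genes were measured, of the oocyte and eggshell list 2, and none of them was a member. Of the 8 measured genes on the neuron list, 1 was a member, the neuropeptide gene nlp-91, where 3.59% of all genes are members. The early change over these 8 genes had a median of -0.36 and ran from -1.41 to 0.61.

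The rule favours genes with a high ratio at 0 h, so the levels on that array are a description of the choice. The members' median ratio was 0.99 at 0 h, -0.25 at 2 h, -0.42 at 4 h, -0.29 at 6 h, -0.27 at 8 h, -0.40 at 10 h and -0.45 at 12 h. The median of all 5315 genes stayed between -0.01 and 0.02. All 191 members had a ratio above 0 at 0 h, and 92 had one of 1 or more. The median member ranked at percentile 95.6 of all genes at 0 h, at percentile 23.0 at 6 h and at percentile 25.0 at 8 h. Of the 266 genes with the highest 0 h ratios, 116 were members. The unheated state rests on a single array, and what is particular to that array enters every difference from 0 h. Its ratios were also the most widely spread, with an SD of 0.61 over all 5315 genes. The SD was 0.54 for the 12 h array, the widest of the heated ones, and 0.41 for the 4 h array, the narrowest. Scaling the arrays to the same median absolute deviation gave 147 members, 143 of them among the 191. Quantile normalization gave 111, with 104 among the 191. How far the 0 h spread shaped the choice was not tested.

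**Figure D1:**
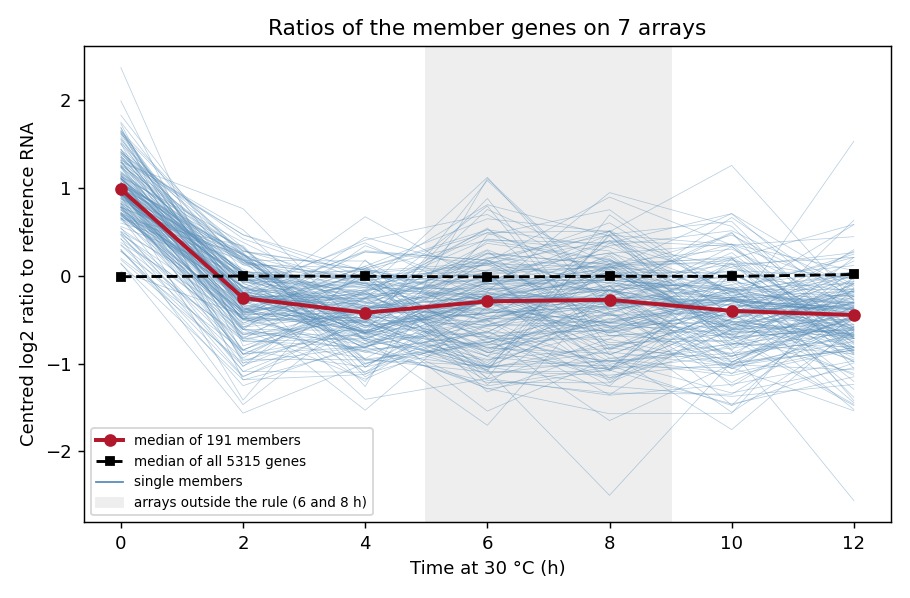
Centred log2 ratio to the reference RNA (vertical) against hours at 30 °C (horizontal) for each of the 191 members (thin lines), with the members' median and the median of all 5315 genes. The members' median is 0.99 at 0 h and between -0.45 and -0.25 on the heated arrays, and the shaded 6 and 8 h arrays were not used to choose the members.

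The lowest early change belonged to ZK669.2. Its ratio was 2.38 at 0 h, -0.80 at 2 h, -0.38 at 4 h, -0.22 at 6 h, -1.16 at 8 h, -0.52 at 10 h and -0.66 at 12 h. On every heated array the difference from 0 h was -2.599 or lower, with the 8 h array lowest. The gene ctsa-2, which codes for a serine carboxypeptidase of the cathepsin A type, stood at 1.695 at 0 h, then at -1.19, -0.81, -1.253, -1.04, -1.05 and -1.54 from 2 to 12 h. Here the heated arrays lay close together (SD 0.24 over 6 arrays), and 12 h was the lowest. The pseudogene F44F1.1 had an early change of -2.72 but an uneven course, with -1.07 at 6 h, 0.48 at 8 h, 0.62 at 10 h and -0.71 at 12 h. It was the member nearest the upper limit of the late change, at 0.69.

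The next lowest early changes were those of F48G7.12 (-2.35), C49A9.2 (-2.13), tpan-1 (-2.13), F55H12.4 (-2.11), rcd-1 (-2.10), Y32F6B.1 (-2.06) and B0310.3 (-2.06). These genes differed in how level they stayed. Y32F6B.1 had ratios of 1.63 at 0 h and -0.25, -0.61, -0.81, -0.97, -1.14 and -0.84 from 2 to 12 h, so most of the difference was present by 4 h and it deepened to 10 h. tpan-1 stood at 1.65 at 0 h, at -1.57 at 8 h and near 0 at 12 h. B0310.3 stood at 1.59 at 0 h and returned to 0.02 at 6 h and 0.12 at 8 h, which is the level of the typical gene and still well under its own 0 h value.

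At the edge of the rule, the 5 members with the smallest early change were T20B3.1 (-1), cht-6 (-1.003), T28H11.7 (-1.003), F28G4.2 (-1.004) and nssp-64 (-1.0045). The 5 genes just outside were R12H7.4 (-0.999), ZK470.1 (-0.997), K09E9.1 (-0.995), F41F3.3 (-0.994) and R09B5.11 (-0.994). The gap between the sets is far smaller than the SD of these members over the heated arrays, which was 0.30 for T20B3.1 and 0.34 for cht-6. For the late change, R07G3.8 (0.68) and T03F6.4 (0.67) lay inside the upper limit and Y48A6C.2 (0.70) outside. C46E10.8 (-0.69), F52G3.4 (-0.66) and rcd-1 (-0.65) lay inside the lower limit and B0250.4 (-0.70) outside.

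The 6 and 8 h arrays had no part in choosing the members, although any difference from 0 h shares the 0 h array with the rule. At 6 h, 125 of the 191 members were lower than at 0 h by 1 log2 unit or more, against 7.77% of all 5315 genes. At 8 h the number was 131, against 8.6% of all genes. On both arrays it was 106 members (55.5%), against 5.38% of all genes. The members' median difference from 0 h was -1.30 at 6 h and -1.28 at 8 h, while that of all genes was 0.02 at both hours. Most members thus also lay under their own 0 h ratio by 1 log2 unit or more at 6 and 8 h, which is a description. The choice favoured a high 0 h value, which enters these differences too and by itself favours a drop. No test is given, and the counts are not read as a result.

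**Figure D2:**
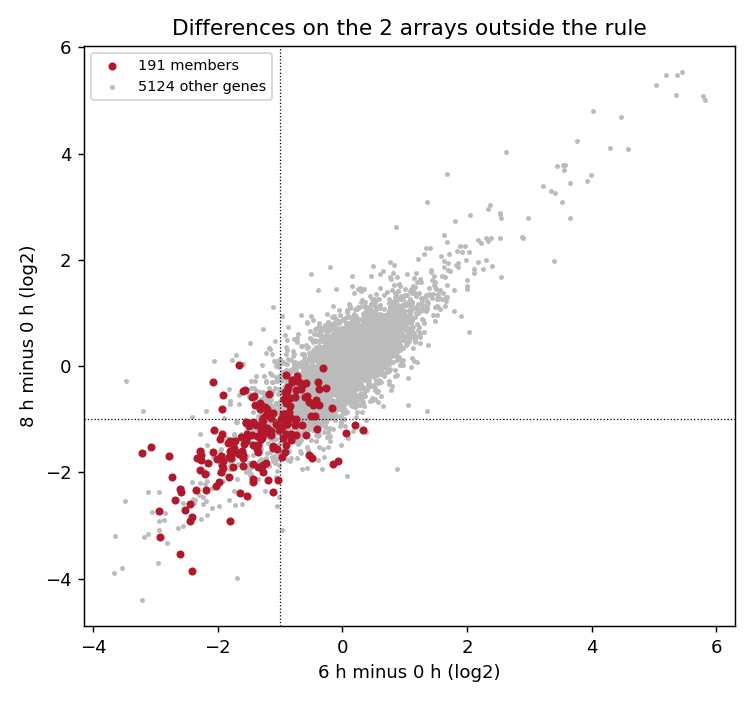
Difference from 0 h in log2 units at 6 h (horizontal) and at 8 h (vertical) for the 191 members and the other genes, with dotted lines at -1. Of the members, 106 lie below -1 on both axes, and 3 at 6 h and 1 at 8 h lie above 0.

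Ratios at 6 and 8 h can also be compared with each other without the 0 h array. Over the 191 members the correlation between the 6 h and 8 h ratios was 0.42, and over all 5315 genes it was 0.52. These correlations are over genes of a pair of arrays that share the reference, and genes are not independent replicates. Genes that were lower by as much at 2 and 4 h but had a late change of 0.7 or more numbered 30. Their median difference from 0 h was -0.93 at 6 h and -0.60 at 8 h. The 71 genes with a late change of -0.7 or lower had medians of -2.08 and -2.02. The members, at -1.30 and -1.28, lay between these sets. The sets were cut by the late change, so their order is a description.

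Of the 191 members, 185 were below their 0 h ratio on all 6 heated arrays, and the 6 others on 5. Of all 5315 genes, 22.6% were below 0 h on all 6. The rule used most of these differences, so nothing is read from the counts. Among the 6, B0507.6, ZC487.1 and T28H11.7 exceeded their 0 h ratio at 6 h, M02D8.5 at 8 h, the pseudogene Y43F8B.6 at 10 h and Y47G6A.7 at 12 h. The excess was small for B0507.6 (0.05) and largest for Y47G6A.7 (0.62). A difference of -1 or lower was seen on all 6 heated arrays for 62 members, on 5 for 51, on 4 for 34, on 3 for 19, on 2 for 16 and on 1 for 9. The shares of all genes were 2.2% on all 6, 1.92% on 5, 1.94% on 4, 2.26% on 3, 3.03% on 2 and 7.49% on 1. Among the 62 were ctsa-2, tpan-1, rcd-1, htrl-1, bcf-1, try-11, try-12, ptp-4A2, bah-2, eakr-2, eppl-1, hrg-11.3, exc-15 and pugs-11. At the hours that the rule used, the members at -1 or lower numbered 141 at 2 h, 166 at 4 h, 140 at 10 h and 158 at 12 h. Of all genes, 5.89% were at -1 or lower at 2 h, 7.45% at 4 h, 9.95% at 10 h and 11.2% at 12 h.

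The members also differed in how steady they were under heat. The SD over the 6 heated arrays had a median of 0.37 over members and 0.29 over all genes. E02C12.6 was the most even, at -0.28, -0.11, -0.04, -0.05, -0.14 and -0.09 from 2 to 12 h after 0.82 at 0 h (SD 0.09). W01C8.5 (SD 0.10), Y106G6H.1 (SD 0.11) and eppl-1 (SD 0.12) were nearly as flat. W01C8.5 came down to the level of the typical gene, between -0.17 and 0.13, after 1.11 at 0 h. Y106G6H.1 in contrast stood at 0.35 at 0 h and between -1.02 and -0.71 under heat. At the other end, C46E10.8 ran from -0.04 at 8 h to -2.56 at 12 h (SD 0.89). The heated array with the lowest ratio was 2 h for 24 members, 4 h for 37, 6 h for 22, 8 h for 31, 10 h for 35 and 12 h for 42, so no single heated array held the minimum for most.

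**Figure D3:**
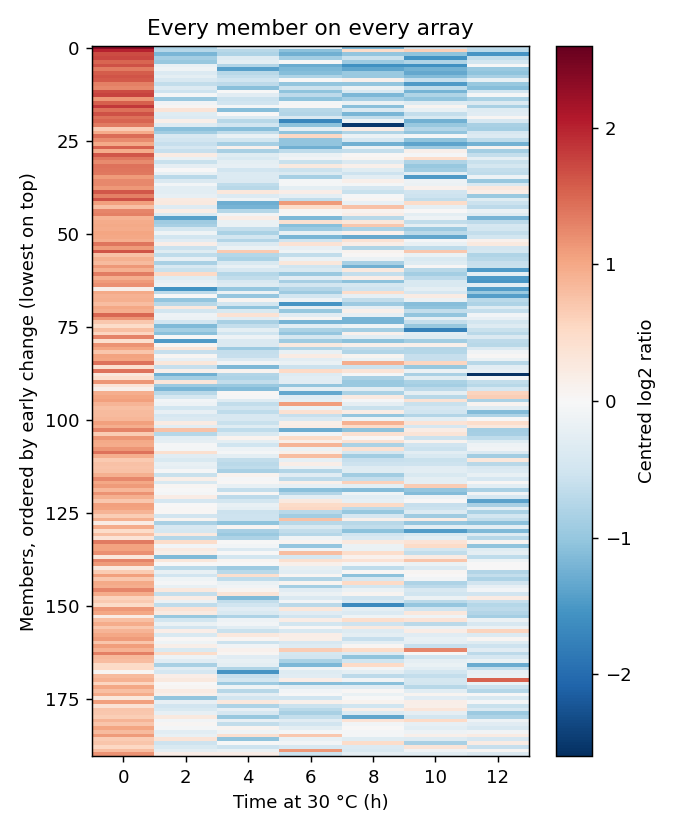
Centred log2 ratio of each of the 191 members (rows, lowest early change on top) at 0 to 12 h (columns). The 0 h column is above 0 for all members, and the heated columns are mostly below 0 with scattered exceptions.

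Whether the members went through a dip or a peak in the middle of the heating was asked by comparing the 6 and 8 h arrays with the 2, 4, 10 and 12 h arrays, in which the 0 h array has no part. With limma, 0 of 13369 features passed at an adjusted p of 0.05 (0% of those tested), and 579 had an unadjusted p under 0.05 (4.33%). Of the 191 members 0 passed, and 20 (10.5%) had an unadjusted p under 0.05, 12 of them higher and 8 lower at 6 and 8 h. The members' median difference was 0.07 and that of all genes -0.01. The 2 and 4 h values entered the rule as low values, which by itself tends to place the 6 and 8 h values higher. The rule also limited the late change over the 2, 4, 10 and 12 h arrays, which enter the error of this fit. Nothing is therefore read from the members' share. On simulated data this fit recovered 23 of 100 features changed by 1 log2 unit, so changes of that size could be missed.

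The members with the highest difference in this comparison were mxt-1 (1.23, SE 0.29), C46E10.8 (1.17, SE 0.48), R09H10.2 (0.96, SE 0.24), K12H4.6 (0.95, SE 0.21) and Y111B2A.21 (0.93, SE 0.27). The limma adjusted p was 0.995 for each. The gene mxt-1 codes for the worm relative of Mextli, a protein that binds the cap-binding factor eIF4E. It stood at 0.78 at 0 h, -0.34 at 2 h, -1.20 at 4 h, 0.47 at 6 h, 0.76 at 8 h, -0.24 at 10 h and -0.68 at 12 h. At 8 h it was close to its 0 h value, so it did not stay low throughout. The lowest differences were those of F28F5.4 (-1.12, SE 0.39), nssp-78 (-1.03, SE 0.45), irg-8 (-0.98, SE 0.35), tpan-1 (-0.79, SE 0.42) and nssp-55 (-0.69, SE 0.28), also at adjusted p = 0.995 with limma.

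In the comparison of the 6 heated arrays with 0 h, limma called 219 of 13369 features (1.64%), 128 of them lower (0.957%). Of the members 36 were called, all lower, with changes from -1.12 for W01C8.5 to -2.999 for ZK669.2. The members were chosen on this contrast, so nothing is read from the count. Without the 2 h array, both the members' count and the count over all features rose. Both fell when any other heated array was left out, under quantile normalization and with scaling to one median absolute deviation.

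A gene name is carried by 41 of the 191 members (21.5%), against 17.8% of all measured genes, and the other members are known by their sequence name. The reference table gives no description of function, so roles are given below as background where they are well known. Among digestive and lysosomal hydrolases, ctsa-2 has been described, and ctsa-3.2 of the same family stood at 0.95 at 0 h and at -0.32, -0.64, -0.30, 0.18, -0.67 and -1.46 from 2 to 12 h. Of the 5 measured ctsa genes, 3 had an early change of -1 or lower, a level that 5.64% of all genes reached. The remaining one was ctsa-3.1 (-1.21), which is no member because its late change was -0.82. ctsa-1.1 (-0.14) and ctsa-1.2 (-0.80) were nearer to 0. The family was looked up after the members were known, as were the families below.

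The genes try-11 and try-12 code for trypsin-like serine proteases. try-11 stood at 0.78 at 0 h and at -0.89, -0.26, -0.82, -0.88, -1.75 and -0.58 from 2 to 12 h. try-12 stood at 1.41 at 0 h and at -0.24, -0.21, 0.26, 0.13, -0.98 and -0.46. Both had their lowest ratio at 10 h, and at 6 h and 8 h try-12 stood above 0 where try-11 stood below it. The other measured try genes had early changes of -0.70 (try-13), 0.11 (try-16) and 0.44 (try-15). Of the 6 measured genes on the protease list, which also holds cpr-9 (-0.31), try-11 and try-12 were members, against 3.59% of all genes. The list median of the early change was -0.51, against 0.02 for all genes. It includes try-11 and try-12, which were picked for a low early change, so nothing is read from it. The chitinase gene cht-6 stood at 0.54 at 0 h and between -0.60 and 0.33 under heat.

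Of members with a background role in bacterial contact or infection, grouped after they were known, 4 are described. bcf-1, for a gut protein that bacteria attach to, stood at 1.83 at 0 h and at 0.04, -0.04, 0.03, -1.08, 0.07 and -0.85 from 2 to 12 h, so it came down to the typical level and went below it at 8 and 12 h. irg-5 and irg-8 belong to genes named for their response to infection. irg-5 stood at 1.07 at 0 h and at -0.49, 0.44, 0.04, -1.06, 0.02 and -0.61. irg-8 stood at 0.94 at 0 h and at -0.72, 0.03, -1.32, -0.82, -0.25 and 0.58. The pair differed at 6 h, where irg-8 had its lowest value, and at 12 h, where only irg-8 was above 0. irg-4, the remaining measured gene of the immune effector list, had an early change of -0.26. bah-2, a gene known for mutants on whose head a bacterial biofilm does not form, stood at 1.11 at 0 h and between -1.48 and -0.14 under heat.

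Metabolic members included C10C5.3, C10C5.4 and C10C5.5, which lie side by side and code for enzymes of the aminoacylase type. C10C5.4 stood at 1.32 at 0 h and at -0.65, -0.69, -1.03, -1.02, -1.48 and -0.99 from 2 to 12 h. C10C5.5 stood at 0.96 at 0 h and between -0.95 and -0.45 under heat, and C10C5.3 at 1.11 at 0 h and between -0.79 and -0.15. All 3 had a difference from 0 h of -1.255 or lower on each of the 6 heated arrays. As related copies, they cannot be separated without the probe sequences. C15B12.1, as background a putative sarcosine oxidase gene, stood at 1.62 at 0 h and between -0.61 and 0.22 under heat. Of other enzymes, plpp-1.2, for a phospholipid phosphatase, had an early change of -1.02. The early changes of hal-3 (-1.245), phdh-1 (-1.36) and eppl-1 (-1.43) are given by name alone.

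Among genes for signalling proteins, ptp-4A2, for a tyrosine phosphatase, stood at 1.37 at 0 h and at -0.18, -0.35, -0.38, -0.53, -0.28 and -0.67 from 2 to 12 h, one of the flatter courses. The other measured ptp genes, ptp-5.2 and ptp-5.3, had early changes of 0.61 and 0.18. ppm-1.H, for a phosphatase of the PPM family, had 1.002 at 0 h and ran between -1.06 and 0.27. The other measured ppm gene, ppm-1.G, had an early change of -0.06. ttbk-7, for a kinase related to tau tubulin kinases, stood at 1.001 at 0 h, and soc-3, for an adaptor in fibroblast growth factor receptor signalling, at 1.29. The early change was -1.18 for ttbk-7 and -1.11 for soc-3. Their heated values reached 0.61 (8 h) and 0.71 (10 h), so these genes stayed low mainly relative to their own high 0 h ratio. The neuropeptide genes nlp-91 and lury-1 had early changes of -1.41 and -1.01. Of the 9 measured nlp and lury genes, these 2 were members, against 3.59% of all genes. The early change over the 9 had a median of -0.44 and reached 0.61 (nlp-57), with 6 of the 9 below 0. nlp-91 moved between -1.42 at 12 h and 0.21 at 10 h, and lury-1 between -0.42 and 0.08.

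Membrane and transport members were clc-9, for a claudin-like protein (-1.44), slcr-46.3, of the solute carrier 46 relatives (-1.31), and hrg-11.3, from the genes named for their response to heme (-1.38). The 5 measured clc genes held 1 member, with a median early change of -0.45 and a highest of 0.70 (clc-7). The 6 measured hrg genes held 1 member, with a median of -0.007 and a highest of 0.58 (hrg-14). slcr-46.3 stood at 1.14 at 0 h and at 0.31, -0.65, -0.29, -0.98, -0.82 and -0.64 from 2 to 12 h, slower to come down than most members. It was 1 member among 27 measured genes on the transporter list, close to the 3.59% of all genes that are members, and the list's median early change was 0.13. slcr-46.1 (-1.484) and mfsd-8.5 (-1.07) on the same list also had an early change of -1 or lower but a late change outside the limits, at -0.92 and -0.77. slcr-46.2 had an early change of 0.35. exc-15, a gene of the excretory canal, stood at 1.16 at 0 h and reached -1.12 at 10 h, after -0.04 and 0.02 at 2 and 4 h. hrpa-2, for an RNA-binding protein of the hnRNP A type, had an early change of -1.16.

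The nssp genes gave 8 members of 34 measured, where 3.59% of all genes are members: nssp-35, nssp-36, nssp-55, nssp-59, nssp-64, nssp-78, nssp-84 and nssp-88. The median early change over the 34, the 8 members included, was -0.27, with a range from -1.52 (nssp-36) to 1.01 (nssp-74). nssp-36 moved between -1.42 at 2 h and 0.18 at 4 h. nssp-88 stood at 1.35 at 0 h and between -0.02 and 0.47 under heat, so it ended near the typical gene. The remaining named members had early changes of -2.13 (tpan-1), -2.10 (rcd-1), -1.92 (htrl-1), -1.60 (eakr-2), -1.23 (cror-1), -1.15 (pugs-11), -1.15 (sysm-1) and -1.08 (wac-1.1). The lists of collagens and cuticle, nuclear hormone receptors and central carbon metabolism had no gene measured on all arrays, and the lists of detoxification enzymes, yolk and lipid metabolism, chaperones and F-box proteins held no member among 1, 2, 2 and 1 measured genes.

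Some members were neighbours. In the WBcel235 gene order of protein-coding genes and pseudogenes, 7 pairs of members lay directly next to each other and involved 13 genes. A further 12 pairs had 1 to 3 genes between them, among them C10C5.3 with C10C5.5. The adjacent members were C10C5.3, C10C5.4 and C10C5.5, then ZK669.2 with ZK669.3, C25E10.4 with C25E10.5, try-11 with try-12, bcf-1 with cht-6, and H43E16.1 with T19D12.1. Of 107 measured places next to a member, 14 held a member (13.1%), against 3.59% members among all genes. Some of these places hold related genes, such as the C10C5 genes and the try pair. The share of members also varied along the genome. By chromosome and probe number, described below, it ran from 0% of probes (III, number 12) to 8.48% (X, number 23). The 3.59% takes neither point into account, and no test of the 13.1% was run. ZK669.3, for a protein like the thiol reductase GILT, shared little of the size of ZK669.2. It stood at 0.78 at 0 h and at 0.22, -0.71, -0.06, 0.03, -0.28 and -0.74 from 2 to 12 h, with the 2 h array still above 0. C25E10.5 stood at 1.52 at 0 h and swung between -1.70 at 6 h and 0.15 at 2 h, while C25E10.4 stood at 0.93 at 0 h and kept between -0.82 and -0.14. bcf-1 and cht-6 are of different families and differed at 8 h, at -1.08 and -0.35.

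**Figure D4:**
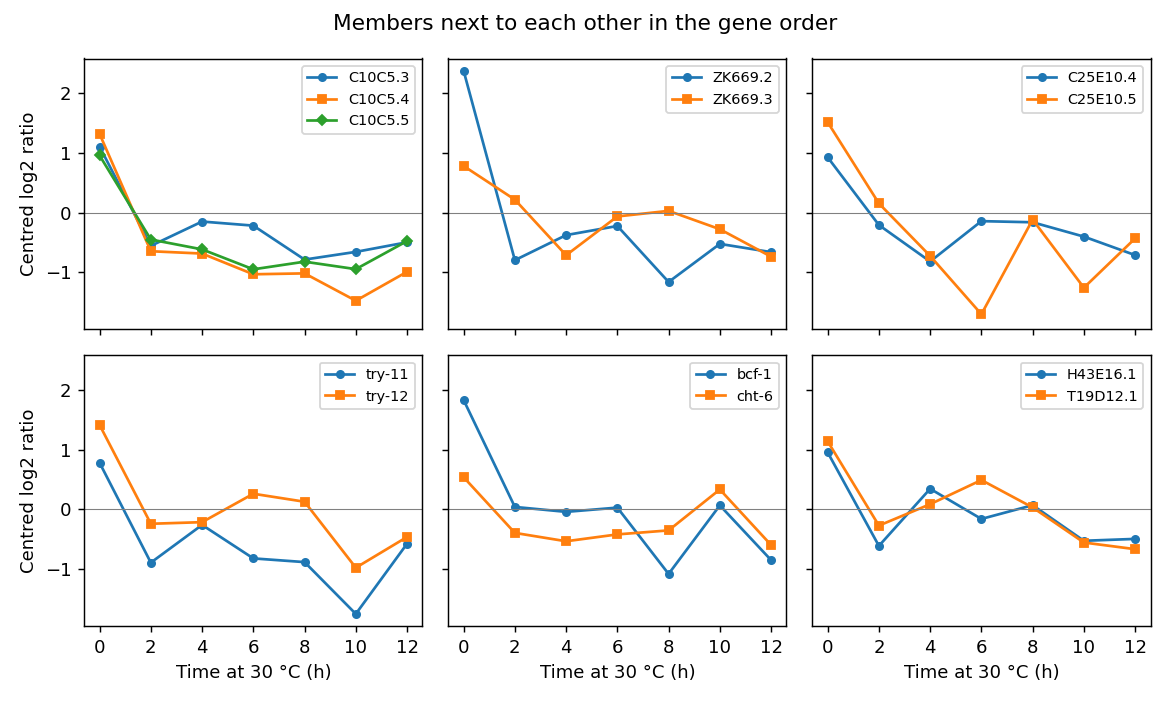
Centred log2 ratio (vertical) against hours at 30 °C (horizontal) for 13 members that adjoin another member, in 6 panels. C10C5.3, C10C5.4 and C10C5.5 stay below 0 on all heated arrays, whereas C25E10.5 and bcf-1 move by over 1 log2 unit between neighbouring hours.

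The members were spread unevenly over the chromosomes. Of the measured genes, 5.88% were members on X (39 of 663), 4.86% on V (51 of 1049), 3.50% on II (37 of 1056), 3.34% on IV (28 of 839), 2.43% on III (19 of 781) and 1.86% on I (17 of 912). The probe numbering runs with the chromosomes, however. The third number of the probe ID goes from 1 to 25, probes of chromosome I have the numbers 1 to 4 and probes of X the numbers 22 to 25, with some numbers shared by neighbouring chromosomes. Members took 2.03% of the probes numbered 1 to 5, 3.38% of 6 to 10, 3.30% of 11 to 15, 4.11% of 16 to 20 and 5.96% of 21 to 25. Over all measured genes the median early change was 0.20 on chromosome I and -0.08 on X. Chromosome and place in the probe numbering cannot be told apart. After each array was centred separately within each value of the third number, the share of members was 4.07% on X and 2.30% on I. Within chromosomes the share also varied, for example on V between 1.11% at number 17 and 7.32% at number 21. Of the members 180 are protein-coding and 11 are pseudogenes, which is 3.67% and 3.51% of the measured genes of each type.

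**Figure D5:**
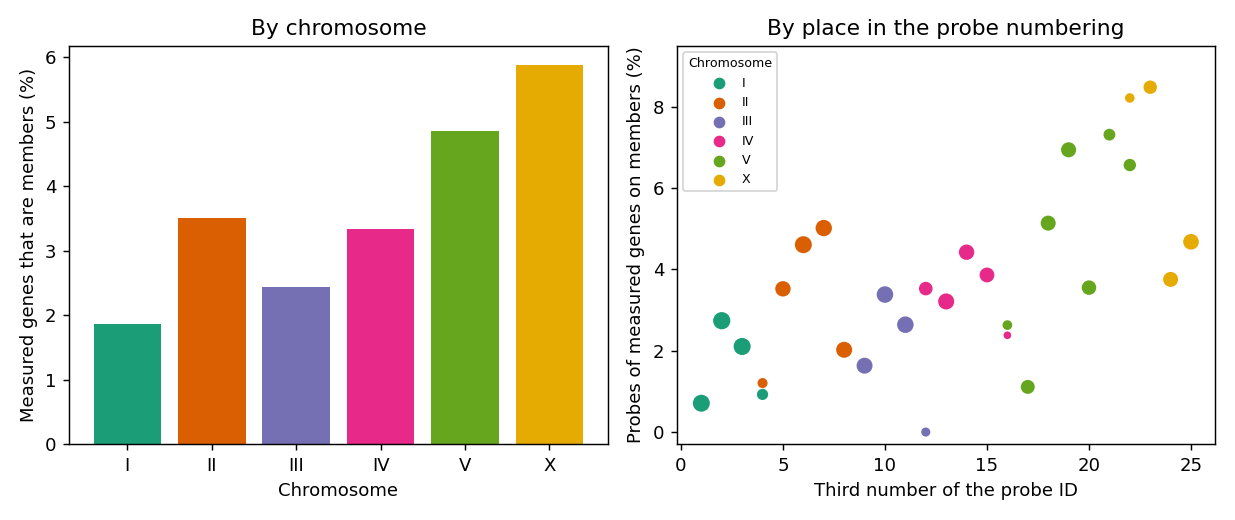
Share of measured genes that are members, in percent, by chromosome (left), and share of the probes of measured genes that lie on members by the third number of the probe ID, coloured by chromosome (right, dot area by number of probes). The left panel runs from 1.86% on I to 5.88% on X, and the right panel shows that probe numbers run with the chromosomes, with 4, 12, 16 and 22 each shared by a pair of chromosomes.

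The spots behind the values gave a further check. Member probes were found in all 32 print blocks, with 1 to 16 per block, or 0.581% to 8.16% of a block's probes of measured genes. No member had a probe at the limits of the file (-5 and 5). Of the members 13 had 2 probes each, and 6 of these had both probes measured on all arrays. Both probes met the rule for 1 gene, bcf-1, with early changes of -2.27 and -1.39. For 10 genes 1 probe met it: B0303.11, H43E16.1, K08D8.3, M04C3.1, T19D12.1, T28F3.8, Y17G9A.4, Y38C1BA.1, Y43F8B.6 and ZC239.2. For 2, M162.7 and W08E12.4, no probe met it alone, and their probes had values on different arrays. Membership of these genes thus rests on an average over unlike sets of probes. Of the 10, B0303.11, H43E16.1, Y17G9A.4, Y43F8B.6 and ZC239.2 had another probe that lacked values and could not be judged. The others had both probes on all arrays, and the other probe failed the rule. The probes of K08D8.3 disagreed, with early changes of -2.41 and -0.29. The failing probe had an early change of -0.95 for M04C3.1, -0.845 for T19D12.1, -0.81 for T28F3.8 and -0.89 for Y38C1BA.1. Its late change was -1.42 for M04C3.1, -0.73 for T19D12.1 and -1.01 for T28F3.8. For the remaining members a gene is a single spot per array, and this kind of check could not be made.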

How the data were processed

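The deposited table holds 1 value per probe and array, taken as a log2 ratio of both channels. Log base, scanner, background correction and normalization by the authors are not given here, and signal over background is unknown, so the few arrays set the precision. An array had values for 16143 to 16972 of 19200 probes. The platform annotation names 1 gene for 7900 probes, several for none, and leaves 11300 unnamed; 7872 of the 7900 matched the WBcel235 RefSeq table by gene number. Each array was centred on its median and probes of 1 gene were averaged, giving 7534 genes, 5315 of them on all 7 arrays. Fits used limma 3.58.1 (lmFit, eBayes) in R 4.3.3 over 13369 genes and unnamed probes, with Benjamini-Hochberg adjustment at 0.05. They were tested on simulated data. For 6 and 8 h against the other heated arrays, 23 of 100 features changed by 1 log2 unit were recovered. Of 100 changed by 2 log2 units, 66 were recovered, and 4 unchanged features were called. Fewer changed features were recovered for heated against 0 h. The error of the fits is the spread between arrays of different hours. The members, lists and tests were chosen with earlier results of these data known. Named genes are members with the lowest early change, at the rule's edges, with extreme 6 and 8 h values, on 2 probes, next to another member, on a list or with a gene name. Members named for an even, uneven or exceptional course, members with a sequence name and a known role, and name families were chosen after their values were seen. The rule also took members with a described function, but the annotation holds no descriptions. Probe and gene sequences were not analysed here.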

Additional observations from a re-analysis of the deposited data

How the results depend on the processing

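No paired analysis was possible because the groups hold a single array each. The number of members was 191. It became 111 after quantile normalization, of which 104 were among the 191, 327 with an early limit of -0.8 and 101 with a stricter one. Leaving out 1 array at a time from the rule gave 179 to 265, with 124 to 167 of the 191 kept. The other alternatives gave 147 to 230. Centring within print blocks or within the third number of the probe ID, chosen after seeing the data, gave 181 and 169. Of these, 154 and 159 were among the 191. Members at -1 or lower at both 6 and 8 h numbered 74 to 106. The early change moved by more than the SD over the heated arrays for 52 members after quantile normalization, 7 and 5 with the added centrings by the third number and by block, and 4 with scaling. Its sign, which the rule fixes, is no sign of stability. For 6 and 8 h against the other heated arrays, limma called 0 features in every alternative, with 418 to 699 at an unadjusted p under 0.05. For heated against 0 h, 219 features became 88 under quantile normalization and 104 when arrays were scaled to one median absolute deviation, and 110 to 431 when leaving out each heated array. The cause of these shifts was not tested. A single array per hour and an unknown signal over background limit every value.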

Other observations

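Of the 11300 unnamed probes, 8054 had a value on all 7 arrays, and 304 of them (3.77%) met the same limits, against 3.74% of the named genes before the 8 genes were set apart. Of the 5315 genes, 94 met the mirror image of the rule, an early change of 1 or more with a late change between -0.7 and 0.7.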
